A study of Arabidopsis thaliana with 9 samples.

Results

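Starch is made in leaf chloroplasts by day and broken down at night to feed the plant until dawn. Breakdown starts when a glucan water dikinase puts phosphate on the surface of the granule, which loosens it, and phosphatases take the phosphate off again. Beta-amylase and a debranching enzyme then release maltose and short chains, a transporter exports maltose, and enzymes of the cytosol turn it into sugar phosphates and sucrose. Transcripts of many of these genes cycle over the day under the circadian clock. The 10 genes described here cover this route. With earlier results of these data known, they were chosen by name as enzymes or transporters of starch breakdown whose transcripts follow the clock. They are 10 of the 21063 loci with sense tags in the deposited tables. By step of the pathway they are SEX1 (AT1G10760), SEX4 (AT3G52180) and LSF1 (AT3G01510) for phosphorylation and its removal, ISA3 (AT4G09020) and BAM3 (AT4G17090) for the cutting of the glucan, DPE1 (AT5G64860) and PHS1 (AT3G29320) for short chains in the plastid, MEX1 (AT5G17520) for export, and DPE2 (AT2G40840) and PHS2 (AT3G46970) for the cytosol.

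Transcripts were counted by EXPRSS Tag-seq, which reads 1 tag near the poly(A) end of each cDNA and keeps its strand. The slh1 mutant, an Arabidopsis line with a changed immune receptor gene RRS1, was set against No-0, the wild-type ecotype Nossen. Leaves came from plants of both genotypes grown for 4 weeks at 28 °C in days of 10 h light and 14 h dark. They were taken at the move to 21 °C (0 h, the plants still at 28 °C) and 6, 9 and 24 h later, with the move made as the lights came on. Each genotype had 1 library at each of the 4 time points, so that no group has replicates, and how many plants went into a library is not given in the sources used here. Tests over time therefore took the genotypes as the replicates of a time point, and their p-values measure the spread between these libraries only.

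Levels are given as TPM, the sense tags of a gene per 1000000 sense tags of its library. A tag stands for 1 transcript whatever its length, so that levels of different genes can be compared directly. The libraries held between 227021 and 573997 tags, the fewest in slh1 at 0 and 24 h, and 1 tag was worth between 1.99 and 4.985 TPM. For a gene without a tag in a library a floor of 3 tags was used, which is between 5.96 and 15.0 TPM. The upper 95% Poisson limit for 0 tags is higher, at 17.9 TPM in slh1 at 24 h. The leaf label fitted the markers. RBCS1A, CAB1, RCA and LHCA1 summed to between 25430 and 42430 TPM, while of 8 root, seed and flower markers 5 had 0 tags in every library and the sum was at most 15.0 TPM.

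The hour of day of the libraries at 0 h is known only from the labels and the methods of the study. The morning clock gene LHY, a repressor whose transcript peaks at dawn, had 0 tags at 0 h in both genotypes, but 306 TPM in slh1 against 308 TPM in No-0 at 24 h. By the labels and the methods both time points fall at the start of the light period. The summed level of 5 morning clock genes was 24.9 TPM in slh1 against 30.3 TPM in No-0 at 0 h. At 24 h it was 460 TPM in slh1 against 459 TPM in No-0. LHY, RVE8 and RVE1 were higher at 24 h in both genotypes, but the other genes were not. CCA1 had 4.985 and 4.86 TPM at 0 and 24 h in slh1, against 13.8 and 49.7 TPM in No-0. PRR9 went from 9.97 to 2.43 TPM in slh1 and from 5.51 to 3.97 TPM in No-0. The libraries at 0 and 24 h thus differed in part of their morning clock transcripts as well as in temperature, and what set this difference was not tested. Every comparison with 0 h below carries it, while 6, 9 and 24 h were all at 21 °C. In whole leaves, fewer cells with a transcript and less transcript per cell cannot be told apart.

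The 250 bases before the annotated start of each gene were searched on both strands for 3 clock or light related motifs, since most members moved together over time. These were the evening element AAAATATCT, the CCA1-binding site AAAAATCT and the G-box CACGTG. The G-box, a motif bound by bZIP and bHLH proteins, was found upstream of 4 of the 10 members, PHS2, PHS1, DPE1 and LSF1, against 6.49% of 27444 Arabidopsis genes with the same window. The evening element was found upstream of ISA3 (2.36% of the windows of all genes) and the CCA1-binding site upstream of DPE2 (6.69%). No motif overlapped another. A match describes letters only. The windows of PHS2, DPE2, MEX1, SEX4 and LSF1 run into a neighbouring gene. The other 5 are printed, read 5′ to 3′ on the strand of the gene from the RefSeq TAIR10.1 genome, with the motifs in capitals. PHS1 and DPE1 are shown for their G-boxes and ISA3 for its evening element, here on the opposite strand. SEX1 and BAM3 hold none of the 3 motifs and are shown as a member that was low and a member that was high at 24 h.
PHS1 (upstream of AT3G29320, chr3:11252557-11252806, plus strand): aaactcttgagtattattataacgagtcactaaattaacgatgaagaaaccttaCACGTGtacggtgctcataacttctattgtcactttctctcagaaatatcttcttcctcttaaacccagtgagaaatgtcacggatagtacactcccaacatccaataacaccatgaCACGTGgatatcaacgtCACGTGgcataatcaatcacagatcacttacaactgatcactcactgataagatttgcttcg
DPE1 (upstream of AT5G64860, chr5:25928880-25929129, minus strand): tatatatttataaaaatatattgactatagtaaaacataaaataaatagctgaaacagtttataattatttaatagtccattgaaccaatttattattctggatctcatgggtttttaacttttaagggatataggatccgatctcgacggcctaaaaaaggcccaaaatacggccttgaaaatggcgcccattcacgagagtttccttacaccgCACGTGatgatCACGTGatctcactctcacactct
ISA3 (upstream of AT4G09020, chr4:5783659-5783908, plus strand): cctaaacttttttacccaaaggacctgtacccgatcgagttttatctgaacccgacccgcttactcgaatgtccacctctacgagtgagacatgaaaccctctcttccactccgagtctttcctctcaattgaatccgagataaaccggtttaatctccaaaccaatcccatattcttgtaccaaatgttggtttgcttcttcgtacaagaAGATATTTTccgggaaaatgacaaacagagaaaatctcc
SEX1 (upstream of AT1G10760, chr1:3590929-3591178, minus strand): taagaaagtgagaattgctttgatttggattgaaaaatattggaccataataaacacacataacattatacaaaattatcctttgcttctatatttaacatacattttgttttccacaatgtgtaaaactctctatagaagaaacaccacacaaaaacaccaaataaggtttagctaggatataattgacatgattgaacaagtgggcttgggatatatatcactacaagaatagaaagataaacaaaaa
BAM3 (upstream of AT4G17090, chr4:9607403-9607652, minus strand): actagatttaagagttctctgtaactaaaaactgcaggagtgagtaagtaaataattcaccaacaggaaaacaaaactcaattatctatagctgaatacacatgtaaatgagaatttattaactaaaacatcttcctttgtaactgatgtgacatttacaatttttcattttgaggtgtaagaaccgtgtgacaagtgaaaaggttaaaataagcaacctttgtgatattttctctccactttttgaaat
The 3 G-boxes of PHS1 began 196, 79 and 62 bases before the start of the gene, and those of DPE1 35 and 24 bases before it. The single G-boxes of PHS2 and LSF1 began 233 and 52 bases before the start. SEX1, BAM3, MEX1 and SEX4 held none of the motifs in their windows. Whether a motif bears on the level of a gene was not tested.

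The members fell steeply between the first and the last sampling, with BAM3 and MEX1 as the exceptions. Summed over the 10 genes, slh1 had 2253, 632, 799 and 263 TPM at 0, 6, 9 and 24 h, against 1808, 662, 819 and 376 TPM in No-0. At 24 h most of the sum was BAM3. Without it the other 9 genes summed to 2039, 591, 677 and 53.5 TPM in slh1, against 1706, 611, 723 and 82.0 TPM in No-0. In slh1, 9 of the 10 members had their highest level at 0 h and 8 their lowest at 24 h. In No-0, 8 were highest at 0 h and 9 were lowest at 24 h. Of the 3900 loci that averaged 10 tags or more per library, 24.1% in slh1 and 27.8% in No-0 were highest at 0 h, and 42.1% in slh1 and 27.4% in No-0 were lowest at 24 h. The summed levels at 6 and 9 h lay between these ends.

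**Figure D1:**
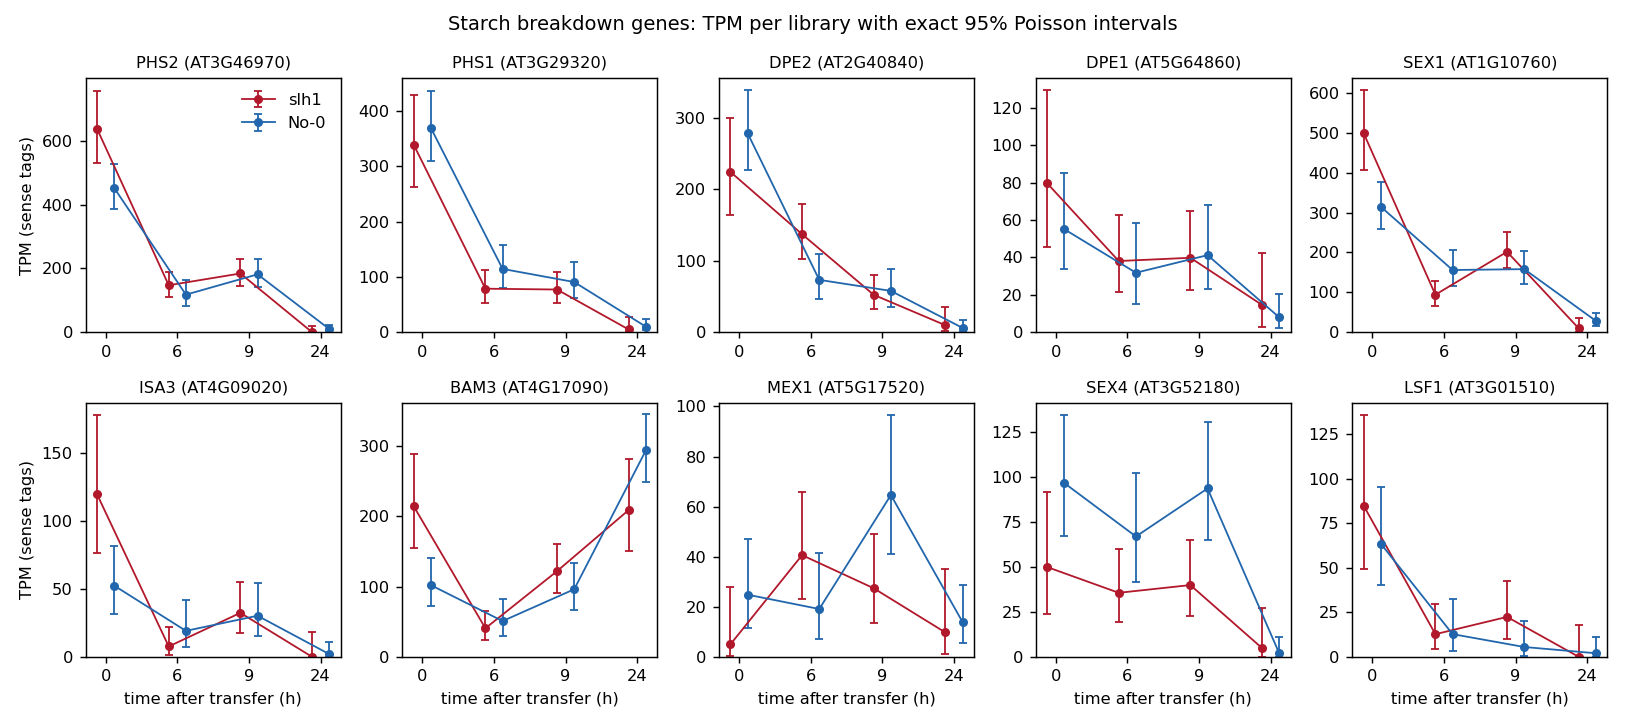
TPM of each of the 10 starch breakdown genes (vertical axis, from 0, own scale per panel) at 0, 6, 9 and 24 h after transfer (horizontal axis, evenly spaced categories), with slh1 in red and No-0 in blue. A point is 1 library and bars are exact 95% Poisson intervals for counting error. All genes but BAM3 and MEX1 stand highest or nearly highest at 0 h and lie under 30 TPM at 24 h, while BAM3 reaches 209 TPM in slh1 against 294 TPM in No-0 at 24 h.

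With edgeR's quasi-likelihood test over the 4 time points, genotype held as an additive term, 8 of the 10 members changed with time, against 19.2% of the 7824 genes tested. Since the members were chosen with earlier results of these data known, the shares of all genes here are a description. All 10 members passed the filter on low counts, which asks for 1 library at 27.5 TPM or more. LSF1 passed only through its libraries at 0 h, as did 895 of all genes, so its contrasts with 0 h are a description and support nothing. For 8 members, all but SEX1 and BAM3, no library at 24 h reached that level. They entered through libraries in which they were higher. Their contrasts with 24 h, with the adjusted p given below, are therefore a description too and support nothing. Between 24 h and 0 h, 8 members were called lower and 0 higher, where 8.26% of all genes tested were called lower. Between 24 h and the mean of 6 and 9 h, 6 members were lower (6.01% of all genes) and 1, BAM3, was higher (6.7% of all genes). Between the mean of 6 and 9 h and 0 h, 7 members were lower (3.4% of all genes). The median log2 fold change of the members was -4.81 for 24 h against 0 h, -3.02 for 24 h against 6 and 9 h, and -1.59 for 6 and 9 h against 0 h. Over all genes tested these medians were 0.03, 0.02 and 0.04. Without LSF1, 7 of 9 members were called over time, 7 were lower at 24 h than at 0 h and 6 were lower at 6 and 9 h than at 0 h, and the medians were -4.61, -3.26 and -1.43. The 3 contrasts share libraries and are not independent of each other.

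**Figure D2:**
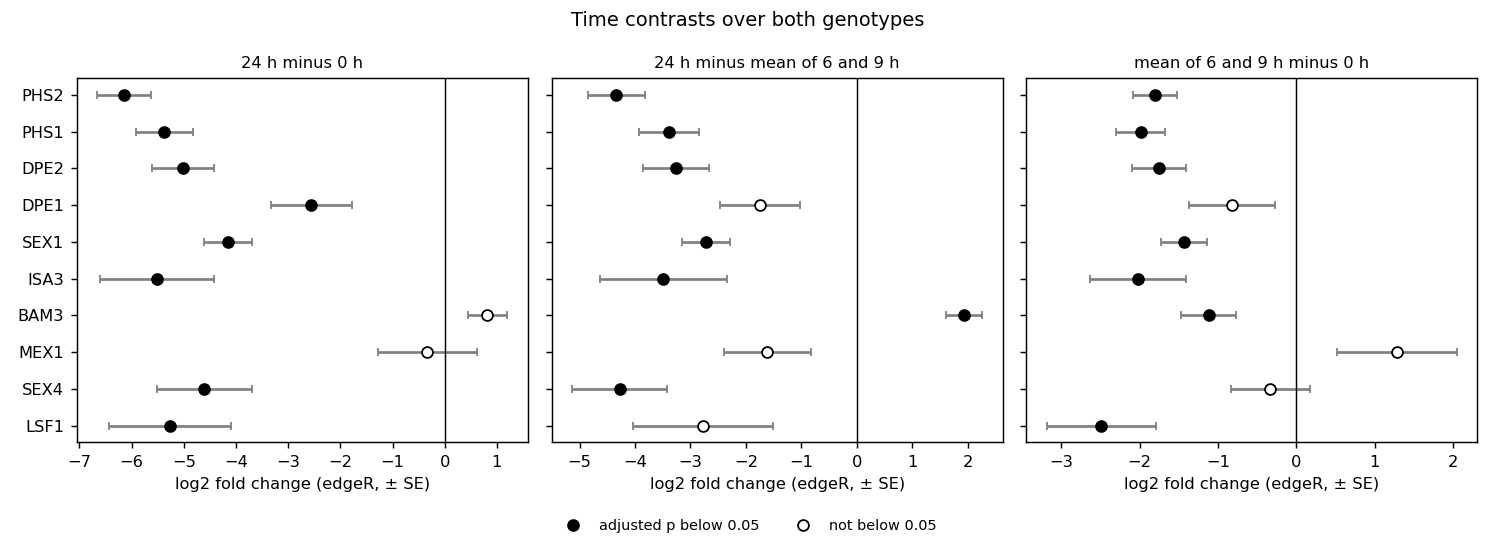
Log2 fold changes (horizontal axis, edgeR, bars are ± SE) of the 10 members for 24 h against 0 h, 24 h against the mean of 6 and 9 h, and the mean of 6 and 9 h against 0 h, over both genotypes. Filled points have an adjusted p below 0.05, and LSF1 was tested only because it was high at 0 h. For all members but SEX1 and BAM3 no 24 h library reached the filter level, so their contrasts with 24 h are a description. PHS2 and PHS1 are at -6.14 and -5.37 for 24 h against 0 h, and BAM3 is the only member to the right of 0 in the first and the second panel.

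SEX1 is the glucan water dikinase that starts breakdown by phosphorylating starch. It had 498 TPM in slh1 against 314 TPM in No-0 at 0 h, and 93.9 TPM in slh1 against 156 TPM in No-0 at 6 h. At 9 h it had 202 TPM in slh1 against 158 TPM in No-0, and at 24 h 9.73 TPM in slh1 against 28.3 TPM in No-0. Both libraries at 24 h lay below all 6 others, and both at 0 h above all others. For 24 h against 0 h SEX1 had a log2 fold change of -4.15 ± 0.45 (SE) (edgeR adjusted p 2.21e-15) and -2.72 ± 0.43 for 24 h against 6 and 9 h (edgeR adjusted p 5.57e-08). The smaller step between 0 h and the 6 and 9 h samplings, -1.43 ± 0.30, had an edgeR adjusted p of 0.000124 but was -0.90 and not called without the slh1 library at 0 h. The counts of SEX1 were not whole in No-0 at 9 h (57.5 tags) and 24 h (14.25 tags), so that part of its reads was shared with other loci.

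SEX4, the phosphatase that removes phosphate from the glucan, had a different course before 24 h. It had 49.9, 35.5, 39.8 and 4.86 TPM in slh1 at 0, 6, 9 and 24 h, against 96.5, 66.8, 93.5 and 1.99 TPM in No-0. The level stayed within a narrow range over the first 3 samplings in each genotype, and only the 24 h libraries, with 1 tag each, were low. On the log2 scale SEX4 was at -4.61 ± 0.91 (SE) for 24 h against 0 h and -4.27 ± 0.86 for 24 h against 6 and 9 h (edgeR adjusted p 1.86e-05 and 3.66e-05). Both contrasts with 24 h are a description, since no 24 h library of SEX4 reached the filter level. For 6 and 9 h against 0 h the value was -0.33 ± 0.50 (edgeR adjusted p 0.759). Without the No-0 library at 24 h the first 2 values were -3.10 and -2.74 and neither was called. LSF1, a protein related to SEX4 that is needed for normal starch breakdown, had 84.7, 12.7, 22.4 and 0 TPM in slh1, against 63.4, 12.7, 5.50 and 1.99 TPM in No-0. Its libraries at 0 h stood above all others, and each library after 0 h held at most 9 tags. Since LSF1 entered the test through its high 0 h libraries alone, and was no longer tested when that pair was left out, its fitted differences from 0 h had to be negative and are given as a description. The log2 fold change of LSF1 between 24 h and 0 h was -5.27 ± 1.17 (SE). In slh1 the 24 h level was at least 5.81-fold lower against the 3-tag floor, with a 95% counting limit of 4.23-fold. Between 24 h and the 6 and 9 h samplings it was -2.78 ± 1.27 and not called (edgeR adjusted p 0.146). For 6 and 9 h against 0 h it was -2.49 ± 0.69, and that value no longer passed the threshold without any 1 of the slh1 libraries at 0 h (-2.61) or 6 h (-2.23) or the No-0 libraries at 0 h (-2.42) or 9 h (-2.098). LSF1 overlaps AT3G01500 on the same strand, so that tags in the shared stretch may have been split. The sense counts of LSF1 were whole in every library.

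ISA3, an isoamylase that removes branches, was a low member with large steps. It had 120 TPM in slh1 against 52.4 TPM in No-0 at 0 h, and 7.62 TPM in slh1 against 19.1 TPM in No-0 at 6 h. At 9 h it had 32.4 TPM in slh1 against 30.3 TPM in No-0, and at 24 h 0 TPM in slh1 against 1.99 TPM in No-0. The 24 h libraries held 0 tags in slh1 and 1 tag in No-0, below all others, and in slh1 the 24 h level was at least 8.20-fold lower than at 0 h against the 3-tag floor, with a 95% counting limit of 6.17-fold. The log2 fold change of 24 h against 0 h was -5.51 ± 1.10 (SE, edgeR adjusted p 2.19e-05). This call held under all 13 alternatives in which ISA3 was tested. No 24 h library of ISA3 reached the filter level, so its contrasts with 24 h are a description. The other contrasts were less firm, at -3.49 ± 1.15 for 24 h against 6 and 9 h (edgeR adjusted p 0.0255) and -2.02 ± 0.62 for 6 and 9 h against 0 h (edgeR adjusted p 0.0209), and each of these calls was lost under 7 of the 13 alternatives. Without the slh1 library at 0 h the value for 6 and 9 h against 0 h was -1.09, and without the No-0 library at 24 h the value for 24 h against 6 and 9 h was -5.77, which rests on a library with 0 tags.

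BAM3, the beta-amylase that releases maltose in the chloroplast, went the other way after 9 h. It had 214, 40.6, 122 and 209 TPM in slh1 at 0, 6, 9 and 24 h, against 102, 50.9, 96.2 and 294 TPM in No-0. In tags these were 43, 16, 49 and 43 in slh1, against 37, 16, 35 and 148 in No-0. Both libraries at 24 h lay above all 4 libraries at 6 and 9 h, and both at 6 h were the lowest of their genotype. For 24 h against 6 and 9 h its log2 fold change of 1.94 ± 0.33 (SE; edgeR adjusted p 4.11e-07) was called and between 1.49 and 2.35 under all 14 alternatives. For 6 and 9 h against 0 h it was -1.12 ± 0.35 (edgeR adjusted p 0.0248), a call that was lost under 7 of 14 alternatives, with -0.47 without the slh1 library at 0 h. With the No-0 library at 0 h left out the value was -1.70 and remained called. Between 24 h and 0 h BAM3 was at 0.82 ± 0.38 (edgeR adjusted p 0.124), and the genotypes differed in what single libraries showed. In slh1 the ratio of 24 h to 0 h was 0.976 (95% interval 0.624 to 1.53), and in No-0 it was 2.88 (2.00 to 4.25). These intervals, exact binomial ones, cover counting error only, and whether the ratio differs between genotypes has no replicate check. BAM3 overlaps AT4G17085 and AT4G06665 on the opposite strand. It had 2 antisense tags over all libraries, against 387 sense tags.

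DPE1 and PHS1 handle short glucan chains in the plastid. DPE1, a disproportionating enzyme that joins and splits maltotriose, had 79.8, 38.1, 39.8 and 14.6 TPM in slh1 at 0, 6, 9 and 24 h, against 55.1, 31.8, 41.2 and 7.95 TPM in No-0. It was highest at 0 h and lowest at 24 h in both genotypes, but on at most 20 tags a library. Its log2 fold change of -2.56 ± 0.77 (SE) for 24 h against 0 h was the smallest of the 8 that were called (edgeR adjusted p 0.00946). It was not called without the slh1 library at 0 h (-2.46) or the No-0 library at 24 h (-2.18), and over the 4 time points together DPE1 did not pass (edgeR adjusted p 0.0629). For 24 h against 6 and 9 h it was at -1.74 ± 0.72 and for 6 and 9 h against 0 h at -0.82 ± 0.55, neither of them called. PHS1, the plastidial glucan phosphorylase, had 339, 78.7, 77.2 and 4.86 TPM in slh1, against 369, 115, 90.7 and 9.93 TPM in No-0. Its 3 levels, at 0 h, at 6 and 9 h, and at 24 h, did not overlap between libraries. No 24 h library of DPE1 or PHS1 reached the filter level, so their contrasts with 24 h are a description. The log2 fold change of PHS1 was -5.37 ± 0.55 for 24 h against 0 h (edgeR adjusted p 2.47e-17). It was -3.39 ± 0.55 for 24 h against 6 and 9 h and -1.99 ± 0.32 for 6 and 9 h against 0 h (edgeR adjusted p 1.23e-07 and 2.09e-07). In single libraries, 24 h was 69.7-fold lower than 0 h in slh1 (95% interval 12.1 to 2793) and 37.2-fold lower in No-0 (15.6 to 116). PHS1 overlaps AT3G29330 on the opposite strand and had 4 antisense tags in all.

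MEX1, which exports maltose from the chloroplast, showed no shared course in the libraries. It had 4.985, 40.6, 27.4 and 9.73 TPM in slh1 at 0, 6, 9 and 24 h, against 24.8, 19.1, 64.6 and 13.9 TPM in No-0. It was highest at 6 h in slh1 and at 9 h in No-0, and lowest at 0 h in slh1 and at 24 h in No-0. No contrast was called, with -0.33 ± 0.95 (SE) for 24 h against 0 h, -1.61 ± 0.79 for 24 h against 6 and 9 h and 1.28 ± 0.77 for 6 and 9 h against 0 h (edgeR adjusted p 0.847, 0.186 and 0.358). It had at most 23.5 tags a library, and 1 tag in slh1 at 0 h.

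DPE2 and PHS2 act in the cytosol. DPE2, the transglucosidase that acts on exported maltose, had 224, 137, 52.3 and 9.73 TPM in slh1 at 0, 6, 9 and 24 h, against 278, 73.2, 57.7 and 5.96 TPM in No-0. Both 0 h libraries were above and both 24 h libraries below all others. On the log2 scale DPE2 was at -5.01 ± 0.59 (SE) for 24 h against 0 h and -3.26 ± 0.60 for 24 h against 6 and 9 h (edgeR adjusted p 2.24e-13 and 3.93e-06). For 6 and 9 h against 0 h it was -1.75 ± 0.35 (edgeR adjusted p 6.58e-05), and -1.42 and not called without the No-0 library at 0 h. PHS2, the cytosolic phosphorylase, had 638 TPM in slh1 against 452 TPM in No-0 at 0 h, the highest level of any member in each genotype. At 6 h it had 147 TPM in slh1 against 118 TPM in No-0, and at 9 h 184 TPM in slh1 against 182 TPM in No-0. At 24 h it had 0 tags in slh1 and 5 tags, 9.93 TPM, in No-0. In slh1 the 24 h level was at least 43.7-fold lower than at 0 h and at least 12.6-fold lower than at 9 h against the 3-tag floor. The 95% counting limits, which also cover the tags at 0 and 9 h, were 35.1-fold and 10.0-fold. In No-0 the 24 h level was 45.5-fold (95% interval 19.1 to 142) and 18.3-fold (7.45 to 58.1) lower. No 24 h library of DPE2 or PHS2 reached the filter level, so their fitted contrasts with 24 h are a description. Tested over both genotypes, PHS2 was at log2 fold changes of -6.14 ± 0.51 for 24 h against 0 h, -4.34 ± 0.51 for 24 h against 6 and 9 h and -1.80 ± 0.28 for 6 and 9 h against 0 h (edgeR adjusted p 1.32e-23, 3.36e-13 and 1.05e-07). Without the No-0 library at 24 h the first 2 rest on a library with 0 tags and were -10.52 and -8.69. PHS2 overlaps AT3G46980 on the same strand. Its antisense tags, 14, 6, 7 and 0 in slh1 and 24, 2, 8 and 2 in No-0 at 0, 6, 9 and 24 h, were also most frequent at 0 h. They made up 10.6% of its tags, within the 10.1% to 12.3% of whole libraries, and LSF1 (10.3%) and MEX1 (9.58%) had a like share, while the 10 members together had 4.97%.

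At 0 h the members were ordered PHS2, SEX1, PHS1, DPE2, BAM3, ISA3, LSF1, DPE1, SEX4 and MEX1 by their level in slh1, and PHS2, PHS1, SEX1, DPE2, BAM3, SEX4, LSF1, DPE1, ISA3 and MEX1 in No-0. Neighbours such as SEX1 and PHS1 changed places between the genotypes, while PHS2 stood at the top and MEX1 at the bottom of both. The 95% Poisson intervals overlapped for 9 of the 9 pairs of neighbours in slh1 and for 8 of 9 in No-0, where DPE2 stood clear of BAM3. At 24 h BAM3 was first in both genotypes. In slh1 the other members had between 0 and 3 tags at 24 h, too few to order them, and in No-0 SEX1 was second with 14.25 tags and the rest had between 1 and 7 tags.

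Among pairs of single libraries, a difference of 4-fold or more in TPM + 5 was taken as large. It was counted over the 3900 loci that averaged 10 tags or more per library, which include 7 members but not ISA3, MEX1 or LSF1. Between 24 h and 0 h, 6 of the 7 were so much lower in slh1 (12.2% of the loci) and 6 in No-0 (5.79%), all but BAM3. Between 24 h and 9 h, 4 of the 7 were so much lower in slh1 (11.3%) and 5 in No-0 (4.36%). Between slh1 and No-0 at 24 h, 0 of the 7 were so much lower in slh1 (3.0%). This count could not include PHS2, PHS1, DPE2, DPE1 or SEX4. They had at most 9.93 TPM in No-0 at 24 h, too little for 4-fold in TPM + 5 even against 0 tags in slh1. The members that much lower at 24 h than at 9 h were PHS2, PHS1, SEX1 and SEX4 in both genotypes, and DPE2 in No-0 only. What set their lower level was not tested. A pair of libraries has no replicate check.

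At 21 °C the comparison of slh1 with No-0 called no member. The difference at 0 h, with 1 library per genotype, was not tested on its own. For 6, 9 and 24 h together, with the time point as a block, 0 of the 10 members had an edgeR adjusted p below 0.05, where 0.102% of all genes were called. At an unadjusted edgeR p below 0.05 there was 1 member, SEX4, where 417 of the 7824 genes tested passed. DESeq2 and limma-voom each called 0 members. The log2 fold changes lay between -1.15 ± 0.54 (SE) for SEX4 (edgeR p 0.0376, adjusted 0.93) and 0.51 ± 0.92 for LSF1, with a median of -0.38 against -0.05 over all genes. SEX4 was lower in slh1 at 0, 6 and 9 h, with 39.8 TPM in slh1 against 93.5 TPM in No-0 at 9 h, a ratio of 0.426 (95% counting interval 0.220 to 0.793). At 24 h it had 1 tag in each genotype. PHS1 was lower in slh1 at each of the 4 time points, with ratios of 0.918, 0.687, 0.850 and 0.490, and each interval included 1. With TMM factors in place of total tags the ratio of PHS1 at 6 h was 0.564 (0.337 to 0.937). At 21 °C the log2 fold change of PHS1 was -0.64 ± 0.38 and that of SEX1 -0.52 ± 0.34. PHS2 was at -0.18 ± 0.34, and 0.02 when libraries were scaled by total sense tags, a scaling that moved the median of all genes to 0.13.

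**Figure D3:**
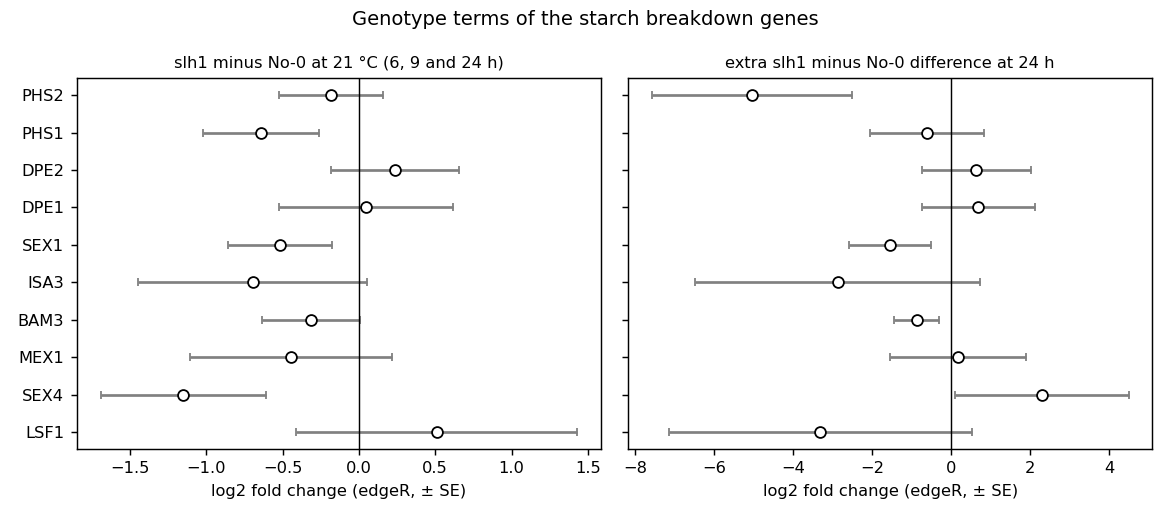
Log2 fold changes (horizontal axis, edgeR, bars are ± SE) of the 10 members for slh1 minus No-0 over 6, 9 and 24 h (left) and for the extra slh1 minus No-0 difference at 24 h (right). No member had an adjusted p below 0.05, SEX4 lies lowest in the left panel at -1.15, and PHS2 lies lowest in the right panel at -5.03, where slh1 had 0 tags at 24 h.

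The extra difference of slh1 from No-0 at 24 h, over that at 0, 6 and 9 h, was also called in 0 members by edgeR, DESeq2 and limma-voom, where edgeR called 0.256% of all genes. Of the members only PHS2 had an unadjusted edgeR p below 0.05 (0.047, adjusted 0.717), as had 537 of the 7824 genes tested. Its value of -5.03 ± 2.53 (SE) depends on the library with 0 tags and is no bound, since 0 tags in slh1 and 5 in No-0 at 24 h left a ratio anywhere between 0 and 2.67. The intervals of single ratios are not corrected for their number, and how many of all loci have an interval outside 1 was not counted. The numbers of members that follow are thus a description. At 0 h, before the shift, 4 members were higher in slh1 beyond counting error. These were PHS2 with a ratio of 1.41 (95% interval 1.11 to 1.79), SEX1 with 1.59 (1.20 to 2.09), ISA3 with 2.28 (1.20 to 4.41) and BAM3 with 2.102 (1.32 to 3.35). At 6 h DPE2 was higher (1.87, 1.13 to 3.20) and SEX1 lower (0.603, 0.382 to 0.942), and at 9 h MEX1 (0.424, 0.184 to 0.880) and SEX4 were lower. SEX1 was higher in slh1 at 0 h and lower at 6 h, so that it kept no direction, and at 24 h the interval of every member included 1. Scaled by TMM factors, the 4 members at 0 h stayed above 1, DPE2 at 6 h no longer did (1.54, 0.927 to 2.62), SEX4 at 6 h was below 1 (0.436, 0.205 to 0.900), and BAM3 at 24 h was at 0.673 (0.468 to 0.951). Each of these ratios compares 1 library with 1.

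Other genes of the pathway shared the fall in part. Of 13 further starch breakdown genes, 9 had enough tags to be tested. Between 24 h and 0 h, 3 of these were lower and 2 higher in edgeR. Of all 7824 genes tested, 646 were called lower and 819 higher. LSF2, a phosphatase of the SEX4 family, had 194, 109, 69.7 and 0 TPM in slh1 at 0, 6, 9 and 24 h, against 141, 76.4, 27.5 and 19.9 TPM in No-0 (log2 fold change -3.48 ± 0.58 (SE), edgeR adjusted p 3.13e-07). AMY3, the plastidial alpha-amylase, and PWD, the phosphoglucan water dikinase that acts after SEX1, were at -3.53 ± 0.67 and -3.52 ± 0.69. GLT1, also among the 4 with the highest mean TPM, was at 1.20 ± 0.66 and not called (edgeR adjusted p 0.205). The 2 called higher were both beta-amylases, named here after their values were seen. BAM9, which lacks catalytic activity, had 0, 5.08, 9.96 and 107 TPM in slh1 and 2.76, 0, 2.75 and 173 TPM in No-0 (6.14 ± 0.98, edgeR adjusted p 7.43e-08). BAM1 had 73.0 TPM in slh1 against 97.3 TPM in No-0 at 24 h, and at most 31.8 TPM in any library before (2.80 ± 0.80, edgeR adjusted p 0.00539). BAM3, BAM9 and BAM1 were each higher at 24 h than at 6 and 9 h, while BAM5, a further beta-amylase, was lower (-5.73 ± 1.95, edgeR adjusted p 0.0331).

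Of 16 starch synthesis genes 12 were tested. At 24 h 7 were lower than at 0 h in edgeR (8.26% of all genes tested) and 0 higher, with a median log2 fold change of -2.26. APL1, a large subunit of ADP-glucose pyrophosphorylase, had 334, 140, 152 and 55.9 TPM in slh1 at 0, 6, 9 and 24 h, against 229, 98.6, 52.2 and 87.4 TPM in No-0. APS1, its small subunit, was at -2.47 ± 0.52 (SE) for 24 h against 0 h (edgeR adjusted p 8.37e-05). For 24 h against 6 and 9 h, 3 of the 12 synthesis genes were lower (6.01% of all genes) and 1 was higher (6.7%). The higher gene was GBSS1, for the starch synthase that makes amylose (1.69 ± 0.58, edgeR adjusted p 0.0348). Genes of synthesis as well as of breakdown were thus among those lower at 24 h.

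**Figure D4:**
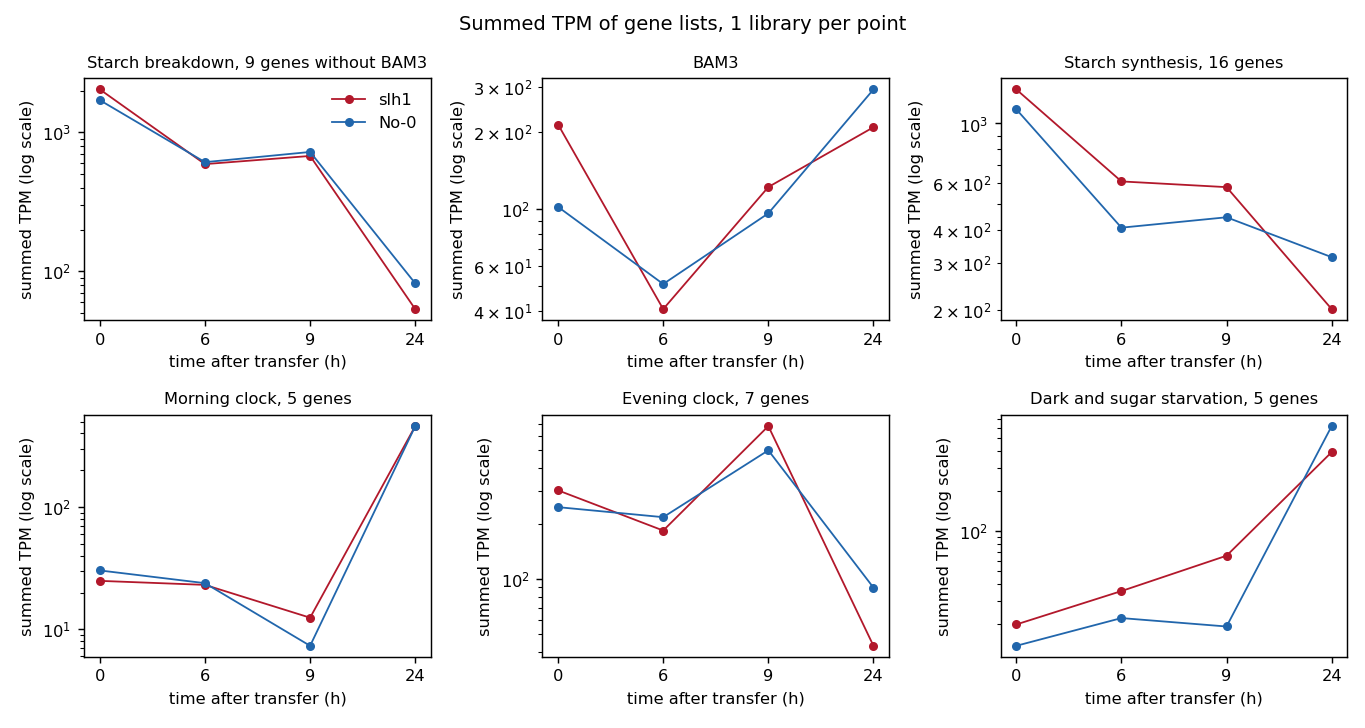
Summed TPM (vertical axis, log scale) at 0, 6, 9 and 24 h after transfer (horizontal axis, evenly spaced categories) for 6 gene groups, slh1 in red and No-0 in blue, 1 library per point. The 9 breakdown genes without BAM3 drop to 53.5 TPM in slh1 against 82.0 TPM in No-0 at 24 h, where the morning clock genes and the dark and sugar starvation genes have their highest sums.

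Clock and sugar markers moved over the same samplings. Of 7 evening clock genes, 3 were lower at 24 h than at 0 h in edgeR (8.26% of all genes tested), and none higher. ELF4, a member of the evening complex, had 59.8, 76.1, 393 and 0 TPM in slh1 at 0, 6, 9 and 24 h, against 66.2, 79.5, 319 and 5.96 TPM in No-0. Its level was highest at 9 h in both genotypes. Of 4 tested genes that respond to dark and low sugar, 3 were higher at 24 h than at 0 h, as were 819 of all 7824 genes tested. SEN1 had 180 TPM in slh1 against 264 TPM in No-0 at 24 h, and at most 17.8 TPM in any library before. DIN6, the asparagine synthetase ASN1, had 0 tags in all 6 libraries at 0, 6 and 9 h, against 87.5 TPM in slh1 against 125 TPM in No-0 at 24 h. Their part in the course of the starch breakdown genes was not tested.

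The members followed each other closely, apart from the exceptions named. Over the 8 libraries, Pearson's r of the log2(TPM + 5) profile of a member with the mean profile of the other 9 was 0.981 for PHS2, 0.974 for PHS1, 0.973 for SEX1, 0.945 for ISA3 and 0.939 for DPE1. It was 0.902 for DPE2, 0.874 for LSF1, 0.857 for SEX4, 0.055 for MEX1 and -0.449 for BAM3. Among 2110 other loci that averaged 20 tags or more, the profiles most like the mean of the members were those of LOX2 (r 0.991), a lipoxygenase of jasmonate synthesis, DHS1 (0.984), AT2G03420 (0.982), AT1G16080 (0.981) and BIP1 (0.974), an HSP70 chaperone of the endoplasmic reticulum. LOX2 had 698, 185, 388 and 29.2 TPM in slh1 at 0, 6, 9 and 24 h, against 609, 232, 374 and 55.6 TPM in No-0. These values describe 8 libraries that share time points, and carry no test.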

How the data were processed

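Per the labels and the methods of the study, cDNA primed with oligo-dT was sheared, and the fragments at the poly(A) end were sequenced and aligned to TAIR10. The submitters' processing notes name Bowtie 0.12.8 and Novoalign 2.08.03, while the methods name BWA for the paired reads of these libraries, so that the aligner behind these counts is not certain. The authors deposited an expected count of tags per locus and strand for each library, not scaled to depth, with reads on several genes split equally. PCR copies count as tags, so intervals (exact 95% Poisson for levels, Clopper-Pearson for ratios) cover counting error only. A sample of reads without a barcode and a text file were not used.

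TPM was computed from sense rows. Rows whose locus name carries a prefix were taken as antisense tags. Counts were rounded and tested with edgeR 4.0.16 in R 4.3.3 (quasi-likelihood F test, TMM, filterByExpr by genotype and temperature, Benjamini-Hochberg over the 7824 genes tested, threshold 0.05), after a test on simulated data. Time contrasts used genotype plus time (3 residual degrees of freedom), and genotype terms used time as a block (2). Pairs of libraries used a pseudocount of 5 TPM. Alternatives were RLE size factors, total sense tags, DESeq2 1.42.0, limma-voom (limma 3.58.1), other filters and pseudocounts, and leaving out libraries. Coordinates, overlaps and upstream bases are from TAIR10.1, to which 98.5% of loci matched by name. Named were all 10 members, up to 4 genes a list by mean TPM, and the 5 most alike loci. Outside this rule BAM9, BAM1, BAM5, GBSS1 and PRR9 were named for their results. The members and lists were chosen with earlier results of these data known.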

Additional observations from a re-analysis of the deposited data

How the results depend on the processing

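The direction of the members held better than the size of the counts. In edgeR, DESeq2 and limma-voom, and under each filter, scaling and left-out library, PHS2, PHS1, DPE2 and SEX1 were lower at 24 h than at 0 h and than at 6 and 9 h and stayed past the threshold, and so did BAM3 as higher than at 6 and 9 h. Since PHS2, PHS1 and DPE2 entered the test through libraries before 24 h, their passing the threshold is a description and supports nothing. No member was called for either genotype term under any alternative run. BAM3 at 24 h against 0 h was called with limma-voom and without the slh1 library at 24 h (1.24).

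Members called were 4 for 6 and 9 h against 0 h with DESeq2. Under a filter of 20 tags on average only 5 members were tested, of which 5 were called at any time point and 4 for 24 h against 0 h. Leaving out single libraries gave 3 to 7 members for 6 and 9 h against 0 h. With a pseudocount of 20 TPM 2 members were at least 4-fold lower at 24 h than at 9 h in slh1 and 2 in No-0, and with 1 TPM 1 member was so much lower in slh1 than in No-0 at 24 h. Over the pseudocounts, filters and TMM scaling, loci that much lower at 24 h than at 0 h numbered 209 to 1510 in slh1 and 98 to 567 in No-0, against 475 in slh1 and 226 in No-0 as reported.

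Over all genes, DESeq2 called 783 genes at any time point, 829 for 24 h against 0 h, 514 for 24 h against 6 and 9 h, 289 for 6 and 9 h against 0 h, 1 for slh1 against No-0 at 21 °C and 4 for the extra difference at 24 h, where edgeR called 1501, 1465, 994, 645, 8 and 20. The filter of 20 tags gave 834, 872, 580, 404, 1 and 13. Without a filter there were 389 for 6 and 9 h against 0 h, 4 for the genotypes at 21 °C and 13 for the extra difference. For the genotypes at 21 °C total sense tags gave 3 and limma-voom 20. Leaving out libraries gave 883 to 1403 at any time point, 718 to 1428 for 24 h against 0 h, 505 to 955 for 24 h against 6 and 9 h, 144 to 763 for 6 and 9 h against 0 h, 1 to 47 for the genotypes at 21 °C and 11 to 92 for the extra difference.

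Values that changed sign were not called in any setting. For slh1 against No-0 at 21 °C these were PHS2 with total sense tags (0.0226), DPE1 with limma-voom (-0.0327) and, over the left-out pairs, DPE1 (-0.13 to 0.286), DPE2 (-0.11 to 0.632), MEX1 (-1.115 to 0.307) and LSF1 (-0.49 to 1.21). For the extra difference at 24 h MEX1 was at -0.0577 without a filter, and between -0.0896 and 1.24 over the left-out pairs. For 24 h against 0 h MEX1 was between -0.889 and 1.002 over the left-out libraries. The causes were not tested. The labels give no replicate numbers, and the only pairing of libraries was by time point or genotype, as in the models themselves. Depth limits the slh1 libraries at 0 and 24 h, the smallest, and at 24 h only BAM3 and DPE1 had 3 or more tags there. A gene with 0 tags in slh1 at 24 h may stand at 14.6 TPM by the 3-tag floor. Its upper 95% Poisson limit is 17.9 TPM.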
